A study of Homo sapiens with 7 samples.

Results

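Chromosome 16, chromosome 22 and the short arm of chromosome 17 (17p) were examined as 3 gene-rich segments of the HCT116 genome. HCT116 is a human cell line derived from a colorectal carcinoma. Members were the CUT&Tag peaks of 6 deposited lists that lay on chromosome 16, on chromosome 22 or on chromosome 17 with a start below 22 Mb (hg19). They numbered 5872 of the 47959 peaks on chromosomes 1 to 22, X and Y, that is 12.2%. Chromosome 16 held 3115 of them, 17p held 1019 and chromosome 22 held 1738. CUT&Tag tethers the Tn5 transposase to chromatin through an antibody, so that DNA near the bound protein is cut and tagged. The NuMA lists came from wild-type cells, 1 library made with an antibody against the C-terminal end of the protein and 1 with an antibody against the N-terminal end. Histone H1 was profiled in 2 wild-type libraries, titled NC, and in 2 libraries from cells with NuMA depletion, titled AID. The labels did not spell out either title, did not say how NuMA was depleted or how far, and did not name a clone or treatment that NC and AID cells might differ in. Peak lists hold no protein or RNA level, so the depletion itself was not checked here. They also did not say whether replicates came from separate cultures, so p-values between groups rest on a spread between libraries that may be only technical. A control library made with immunoglobulin G was not analysed here.

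NuMA is a large coiled-coil protein best known for organising the poles of the mitotic spindle. Between divisions it lies in the nucleus, where it counts among the structural proteins of the nuclear interior. Histone H1 is the linker histone: it binds the nucleosome where DNA enters and leaves and favours compact folding of the fibre. Gene-rich chromosomes such as these lie towards the centre of the nucleus and carry much open, early-replicating chromatin. The comparisons asked where NuMA lay along these segments, whether the antibodies placed it at the same sites, and how H1 peaks lay relative to it with and without NuMA depletion.

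The label of gene-rich segments held for the chromosomes. By the number of protein-coding genes in RefSeq (assembly GRCh38.p14, used for names and chromosomes only) per 1 Mb of each chromosome, chromosomes 17, 16 and 22 had the ranks 2, 4 and 5 among 24. The table was not split into arms, so 17p was not ranked alone. Depth, recovered from the peak values was 9.77 and 9.76 M fragments for H1 in wild-type, 5.73 and 5.72 for H1 after depletion, and 2.93 (C-terminal) and 4.86 (N-terminal) for NuMA. The depleted libraries had an estimated 58.6% of the wild-type depth, so depth and depletion cannot be told apart. The 17p limit fell in a stretch without NuMA peaks. The last N-terminal peak inside it began at 21280882 (fold 3.29) and the next one outside at 25620398 (fold 4.07). In depleted H1 replicate 2 the last peak inside began at 21904664 (fold 5.44), and the next, at 22020663 just outside, had the highest fold of that whole list, 33.9.

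NuMA peaks were crowded on all 3 segments. The C-terminal list held 1150 peaks on chromosome 16, 396 on 17p and 703 on chromosome 22, or 15.8% of that list. The N-terminal list held 1496, 504 and 880, or 14.8%. Peaks were counted in 1 Mb bins by their start, and a bin was measured if any of the 6 lists had a peak in it. The segments had 118 measured bins of 2326 in the genome. They held on average 19.1 C-terminal and 24.4 N-terminal peaks per bin, against 5.43 and 7.54 in the rest of the genome, a 3.51-fold and a 3.24-fold higher density. By segment, the C-terminal excess was 3.47-fold on chromosome 16, 3.31-fold on 17p and 3.70-fold on chromosome 22, and the N-terminal excess was 3.25-fold, 3.04-fold and 3.34-fold. The order of the segments depended on the bins counted. With bins without any peak included, the C-terminal excess was 3.10-fold, 4.41-fold and 3.32-fold and the N-terminal excess 2.91-fold, 4.05-fold and 2.99-fold, so that 17p, which has no empty bin, went from lowest to highest. The crowding was not particular to these segments. Chromosome 19 was the densest chromosome, with 40.6 C-terminal and 53.6 N-terminal peaks per measured bin. Chromosome 17 as a whole had 20.3 and 24.7, above the 18 and 22.9 of 17p alone. With 1 library per antibody these densities have no replicate check and no test.

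The density was uneven within each segment. The median measured bin held 5 C-terminal peaks on chromosome 16, 13.5 on 17p and 14 on chromosome 22, while the fullest bins held 135, 70 and 73. Chromosome 16 thus had the fullest bins and the lowest median. Regions called with both antibodies, defined as C-terminal peaks that overlap an N-terminal peak by at least 1 bp, numbered 894 on chromosome 16, 300 on 17p and 494 on chromosome 22. The 5 fullest bins held 45.6% of these regions on chromosome 16, 60% on 17p and 42.9% on chromosome 22. At the other end, 30 of the 118 measured bins held none.

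**Figure D1:**
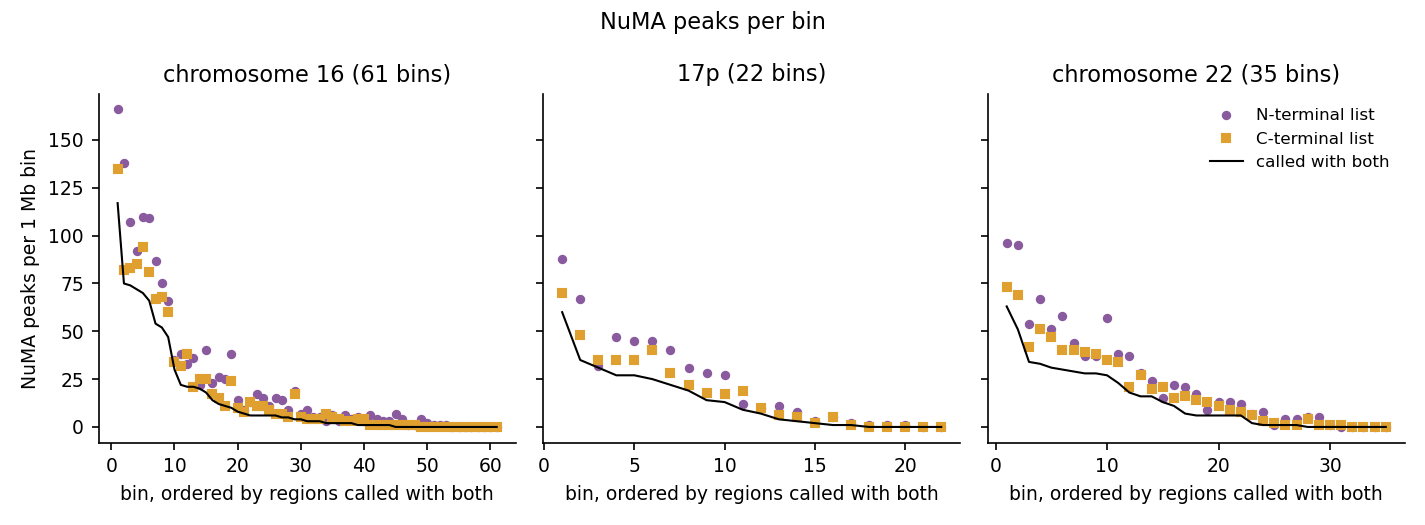
NuMA peaks per 1 Mb bin on chromosome 16 (61 measured bins), 17p (22) and chromosome 22 (35), with bins ordered by the number of regions called with both antibodies. Circles are N-terminal peaks, squares C-terminal peaks and the line the regions called with both; all 3 segments fall steeply from a few full bins, and chromosome 16 from the highest value (117 regions).

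A bin was called NuMA-dense where both lists reached the 90th percentile of that list over all measured bins, which was 17 C-terminal and 22 N-terminal peaks. Of all measured bins in the genome 9.24% were NuMA-dense. On the segments 41 of 118 bins were dense, or 34.7%: 17 on chromosome 16, 10 on 17p and 14 on chromosome 22. In the rest of the genome 174 of 2208 bins were dense, or 7.88%. The dense bins held 84.3% of the segments' C-terminal and 82.9% of their N-terminal peaks. Bins close to the limit were few. Chromosome 16 at 68 to 69 Mb was just inside with 17 and 23 peaks, and chromosome 22 at 45 to 46 Mb just outside with 16 and 21.

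The dense bins of chromosome 16 formed 6 runs of adjacent bins. The largest lay at the tip of the short arm, from 0 to 5 Mb, and held 427 C-terminal and 564 N-terminal peaks, 37.1% and 37.7% of those on the chromosome. The fullest bin of all 3 segments, at 2 to 3 Mb, lay within it. That bin had 135 C-terminal and 166 N-terminal peaks and 117 regions called with both, which gave it rank 3 among all bins of the genome. C-terminal peaks covered 16.5% of its bases and N-terminal peaks 25.5%. As background, the tip of the short arm carries the α-globin genes, and this bin TSC2 and PKD1, the genes behind tuberous sclerosis and polycystic kidney disease. Peaks were not assigned to genes here, and the genes named as landmarks were chosen after the values were seen.

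A second large run reached from 28 to 32 Mb, with 172 C-terminal and 201 N-terminal peaks, and within it the bin at 30 to 31 Mb held 85 and 92. Another lay at the tip of the long arm from 87 to 91 Mb, with 238 and 274 peaks. Smaller runs lay at 67 to 69 Mb (85 and 98 peaks), at 57 to 58 Mb (25 and 40) and at 85 to 86 Mb (24 and 38). The run at 67 to 69 Mb is the part of the long arm that carries CTCF, which encodes a boundary factor of chromatin loops, and CDH1, which encodes E-cadherin. The short arm had 559 regions called with both antibodies in 29 measured bins and the long arm 335 in 32.

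On 17p the dense bins formed 3 runs. The run from 0 to 5 Mb held 155 C-terminal and 210 N-terminal peaks, that from 7 to 9 Mb held 105 and 120, and that from 17 to 20 Mb held 88 and 120. The fullest bin was 7 to 8 Mb with 70 and 88 peaks and 60 regions called with both, and peaks of the N-terminal list covered 10.5% of it. As background, this bin carries POLR2A, which encodes the largest subunit of RNA polymerase II. In the runs at 0 to 5 Mb and 17 to 20 Mb no bin was above 48 C-terminal peaks.

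Chromosome 22 had 7 runs, the most of the 3 segments, and none was longer than 3 bins. The largest, at 37 to 40 Mb, held 167 C-terminal and 213 N-terminal peaks. The runs at 19 to 22 Mb and 41 to 44 Mb held 121 and 149, and 82 and 103. The fullest single bin lay near the tip at 50 to 51 Mb, with 73 C-terminal and 96 N-terminal peaks and 63 regions called with both, and 15.2% of its bases lay in N-terminal peaks. The runs at 29 to 31 Mb (58 and 61 peaks), 24 to 25 Mb (40 and 44) and 46 to 47 Mb (35 and 57) were smaller.

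Stretches without a region called with both antibodies lay between these runs. On chromosome 16 the bins from 59 to 66 Mb held no peak of any of the 6 lists. This is a gene-poor part of the long arm that carries the cadherin genes CDH8 and CDH11, and nothing was measured there. The bins from 5 to 8 Mb, next to the dense tip and largely taken up by the very long gene RBFOX1, held 1 C-terminal and 4 N-terminal peaks. Those from 76 to 81 Mb, the part with the very long gene WWOX, held 0 and 1. On 17p the 5 bins from 10 to 15 Mb held 0 and 3, although H1 peaks were called there (4, 4, 3 and 1 in wild-type replicates 1 and 2 and depleted replicates 1 and 2). On chromosome 22 the bins from 33 to 35 Mb and from 48 to 50 Mb held no NuMA peak. The empty bins from 34 to 46 Mb on chromosome 16 and from 0 to 16 Mb on chromosome 22 hold the centromere and the unassembled short arm.

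Within the runs NuMA regions stood close together. Regions called with both antibodies were joined into chains where the gap was at most 10 kb, a grouping chosen after the bins had been seen. The segments had 692 chains, of which 409 were single regions, and 89 chains of 5 or more held 46.6% of all regions. Chains of that size held 57.0% of the regions on chromosome 16, 33.7% on 17p and 35.4% on chromosome 22. The longest lay on chromosome 16 at 1983180 to 2155658, where 39 regions covered 32.6% of 172 kb. The next had 27 regions at 728934 to 823186, covering 40.1% of the span, and 24 regions at 88690361 to 88792395. Chromosome 22 had 22 regions at 50682596 to 50753670, which covered 51.6% of 71.1 kb, the largest share among the 9 longest chains (3 per segment). The longest chains on 17p had 13 regions each, at 7107627 to 7166516 and at 8042097 to 8093629. Over the 711 kb of the 9 chains, the wild-type lists held 1 and 4 H1 peaks and the depleted lists 2 and 1, numbers too small to set against the segments' averages of 1.98, 2.62, 1.11 and 0.58 per measured bin.

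The strongest single regions were spread over several runs. The fold of a peak is the enrichment of fragments at its summit over the local background, as the authors deposited it. Regions called in several lists were ranked by their lowest fold, although the lists differ in depth. On chromosome 16 the highest lower fold of both antibodies was at 89394881 to 89395752, with 21.8 (C-terminal) and 18.1 (N-terminal). It was followed by 67263920 to 67265183 (16.5 and 22.4), 28893788 to 28895078 (16.01 and 15.9), 2924659 to 2925357 (15.4 and 21.02) and 30364428 to 30365513 (14.5 and 15.8). On 17p the leading region lay at 19099489 to 19100350, where the folds were 28.1 and 22.6. Next came 839010 to 839927 (16.2 and 16.9), 8124660 to 8125554 (16.1 and 18.9), 16346587 to 16347664 (16.1 and 17.1) and 7307032 to 7307749 (14.2 and 13.7). On chromosome 22 the leading regions were 37726759 to 37727634 (22.4 and 19.5), 19949680 to 19952783 (15.3 and 15.6), 38146598 to 38148976 (30.1 and 14.9), 18111068 to 18111852 (13.8 and 23.4) and 39715178 to 39716258 (13.7 and 15.9). The C-terminal fold of 30.1 was the highest of that whole list. Of these 15 regions, 13 lay in NuMA-dense bins, near the share of all regions called with both antibodies there (87.9%). One of the 15, at 18111068 on chromosome 22, overlapped an H1 peak, where 6.40% of all such regions on the segments did (108 of 1688, any of the 4 lists). It had folds of 7.05 and 7.44 in the wild-type lists and no peak in either depleted list.

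Strong folds and wide regions were different regions. The widest region called with both antibodies had 8317 bp, on 17p at 7744902 to 7753218, with folds of 3.46 and 6.35. On chromosome 16 the widest had 7272 bp at 2023805 to 2031076 (3.52 and 4.69), and on chromosome 22 the widest had 6980 bp at 50738629 to 50745608 (5.85 and 7.90). All 3 lay in the fullest bin of their segment.

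The antibodies ranked the bins alike. Across the 118 measured bins the C-terminal and N-terminal counts had a Spearman correlation of 0.97 and a Pearson correlation of 0.98. Bins share chromosomes, base composition and mappability between the libraries, so this is a description and no test. The N-terminal count was at or above the C-terminal count in 105 bins and below it in 13. In the 61 bins with at least 20 peaks of both lists together, the ratio of N-terminal to C-terminal peaks had a median of 1.29 and ranged from 0.63 to 2.27, and the whole lists had a ratio of 1.37. The antibodies differed on few bins: 3 reached only the C-terminal limit and 3 only the N-terminal limit. An example is 17p at 16 to 17 Mb, with 19 C-terminal and 12 N-terminal peaks. Chromosome 16 at 75 to 76 Mb was the reverse, with 11 and 25.

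**Figure D2:**
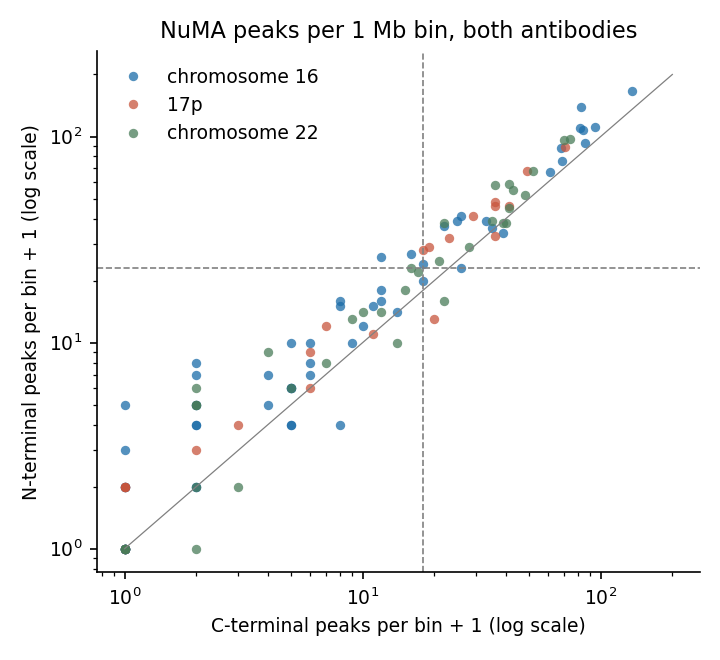
N-terminal against C-terminal NuMA peaks per 1 Mb bin, each plus 1, on log scales, for the 118 measured bins of the 3 segments. Dashed lines mark the limits of 17 and 22 peaks for a NuMA-dense bin and the solid line equal counts; 41 bins lie beyond both limits and 3 beyond each limit alone.

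At the level of single peaks the agreement was partial. Over the whole genome 73.0% of C-terminal peaks had an N-terminal peak on them. On the segments 1688 of 2249 did, or 75.1% (95% Wilson interval 73.2% to 76.8%, counting error only), against 72.6% in the rest of the genome (71.8% to 73.4%). In turn 51.4% of all N-terminal peaks had a C-terminal peak on them. On the segments 1608 of 2880 did, or 55.8% (54.0% to 57.6%), against 50.6% in the rest (49.9% to 51.4%). Chromosome 16 had the highest C-terminal share (77.7%, 75.2% to 80.0%) and chromosome 22 the lowest (70.3%, 66.8% to 73.5%), with 75.8% on 17p.

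Agreement was higher in the dense bins. There 78.3% of the segments' C-terminal peaks overlapped an N-terminal peak (76.3% to 80.1%), against 57.9% in other bins (52.7% to 62.9%). For N-terminal peaks the shares were 58.9% (56.9% to 60.8%) and 41.1% (36.8% to 45.5%). The intervals of dense and other bins did not overlap for either antibody over the segments together, nor on chromosome 16 or chromosome 22 alone. On 17p the N-terminal intervals overlapped (59.3%, 54.7% to 63.8%, against 51.9%, 38.9% to 64.6%, of 54 peaks). The rest of the genome had the same order, with 78.2% and 62.9% for the C-terminal and 59.1% and 38.8% for the N-terminal list. More crowded bins also give more overlap between lists by position alone, and that part was not tested. Dense bins were moreover chosen by high counts of both antibodies together. Higher agreement there was thus partly built in, and the intervals are no test of it.

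**Figure D3:**
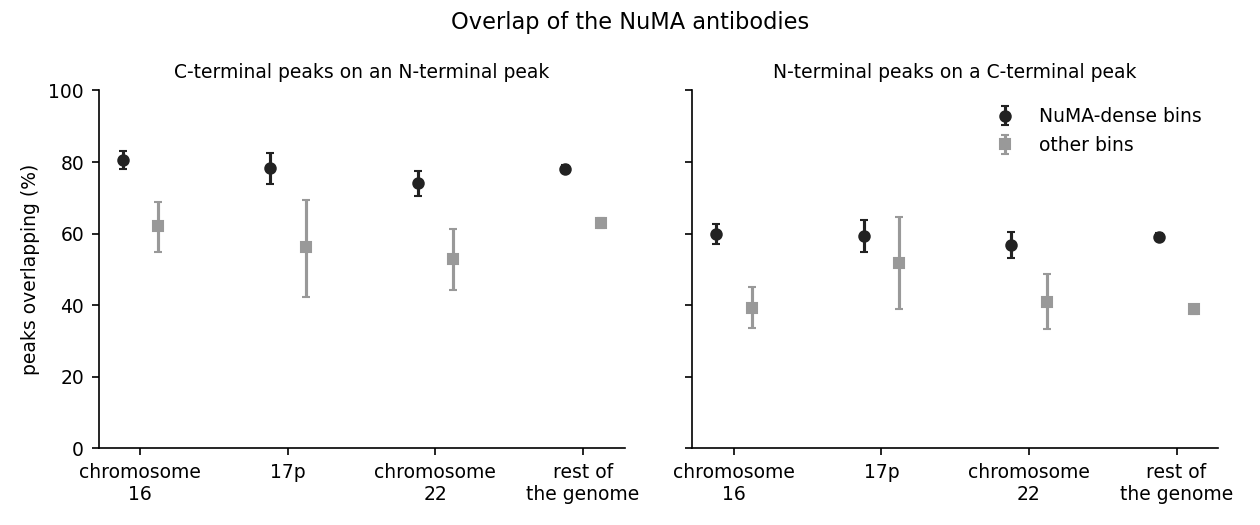
Percent of C-terminal peaks overlapping an N-terminal peak (left) and of N-terminal peaks overlapping a C-terminal peak (right), in NuMA-dense bins (circles) and other bins (squares) of each segment and of the rest of the genome. Bars are 95% Wilson intervals for counting error; shares in dense bins are higher in each pair, with overlapping intervals on 17p for the N-terminal list.

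Peaks called with a single antibody differed between the lists in how they looked. On the segments the shared C-terminal peaks had a median width of 858 bp and the single ones 565 bp, and the shared N-terminal peaks 1082.5 bp against 644.5 bp. The fold went opposite ways. It was lower in shared than in single C-terminal peaks (median 4.83 against 6.77), and higher in shared than in single N-terminal peaks (5.83 against 4.23). Split into quartiles by fold, the C-terminal peaks overlapped in 92.2% of cases in the lowest quartile and 59.5% in the highest. The N-terminal peaks overlapped in 27.5% and 77.6%. Single C-terminal peaks had a median of 13 fragments at the summit against 32 for shared ones, and 32.6% of them lay on the lowest background of the list, against 1.90% of the shared ones. A few fragments over that background make a high fold. Single N-terminal peaks had 47 fragments and shared ones 63.

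The single-antibody peaks of highest fold included 3 C-terminal peaks above 17. They lay on 17p at 19091300 to 19092324 (18.96), on chromosome 16 at 85578115 to 85578814 (18.7) and on chromosome 22 at 43490188 to 43490756 (17.6). The 17p peak lay 7 kb from the leading region of that arm called with both antibodies. As background, this part of 17p carries the U3 small nucleolar RNA genes, which have near-identical copies whose reads cannot be placed with certainty. The strongest N-terminal peak without a partner lay on chromosome 16 at 67226083 to 67226803 (17.2), followed by 14.9 on chromosome 22 at 20920429 to 20921258 and 13.5 on 17p at 7415356 to 7416054. On the segments 12 of 561 C-terminal and 46 of 1272 N-terminal single-antibody peaks overlapped an H1 peak of any list, and 0 of the 18 strongest (3 per list and segment) did.

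Histone H1 peaks did not share the crowding of NuMA on these segments. The wild-type lists held 234 and 309 H1 peaks there and the depleted lists 131 and 69. Per measured bin, the H1 density was 1.014 and 1.10 times that of the rest of the genome in the wild-type lists and 0.99 and 0.92 times in the depleted ones. Chromosome 16 stood at 1.23 and 1.3 times in wild-type, against 1.19 and 1.31 times after depletion, and chromosome 22 at 0.67, 0.83, 0.74 and 0.49 times. On 17p the values were 0.95 and 0.98 times in wild-type and 0.81 and 0.50 times after depletion, with both depleted libraries below both wild-type ones. The level on 17p depended on the bins counted. With bins without any peak included, it was 1.27 and 1.3 times in wild-type, and 1.08 and 0.66 times after depletion. In wild-type 17p then stood above chromosome 16, which had 1.10 and 1.16 times. The H1 peaks covered 102 and 127 kb of the segments in wild-type, against 58.9 and 23.9 kb after depletion, against 2213 kb under C-terminal NuMA peaks.

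Fewer H1 peaks were called on the segments in the depleted libraries. The mean was 271.5 ± 53.0 in wild-type and 100 ± 43.8 (SD, n = 2) in depleted libraries, a ratio of 0.37, and both depleted lists were below both wild-type lists. The exact two-sided permutation test gave p = 0.333, the smallest that 2 against 2 libraries can give. The same ratio was 0.41 in the rest of the genome. By segment it was 0.40 on chromosome 16, 0.35 on chromosome 22 and 0.29 on 17p, where the lists held 41 and 51 peaks in wild-type, against 20 and 7 after depletion. The segments' share of the whole H1 list was 5.14% and 5.56% in wild-type, against 5.01% and 4.66% after depletion. The difference of −0.52 percentage points had an exact permutation p = 0.333, and it became 0.74 (exact permutation p = 0.333) when each list was reduced to its 1480 peaks of highest fold.

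H1 peaks were somewhat denser in the NuMA-dense bins in all 4 libraries. Wild-type replicate 1 had 2.29 H1 peaks per dense bin and 1.82 per other bin, and replicate 2 had 3.34 and 2.23. Depleted replicate 1 had 1.41 and 0.95, and replicate 2 had 0.71 and 0.52. The ratio of dense to other bins was 1.26 and 1.50 in wild-type, against 1.49 and 1.36 after depletion, so the groups overlapped. NuMA itself differed far more between these bins by construction. A bin without a NuMA peak was measured only if it held an H1 peak, as 14 of the 118 did. The 47 bins of the segments without any peak were left out. This raises the H1 density of other bins and lowers the ratios, here and in the rest of the genome. In the rest of the genome the H1 ratio was larger, 1.84 and 2.15 in wild-type, against 2.01 and 1.82 after depletion.

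**Figure D4:**
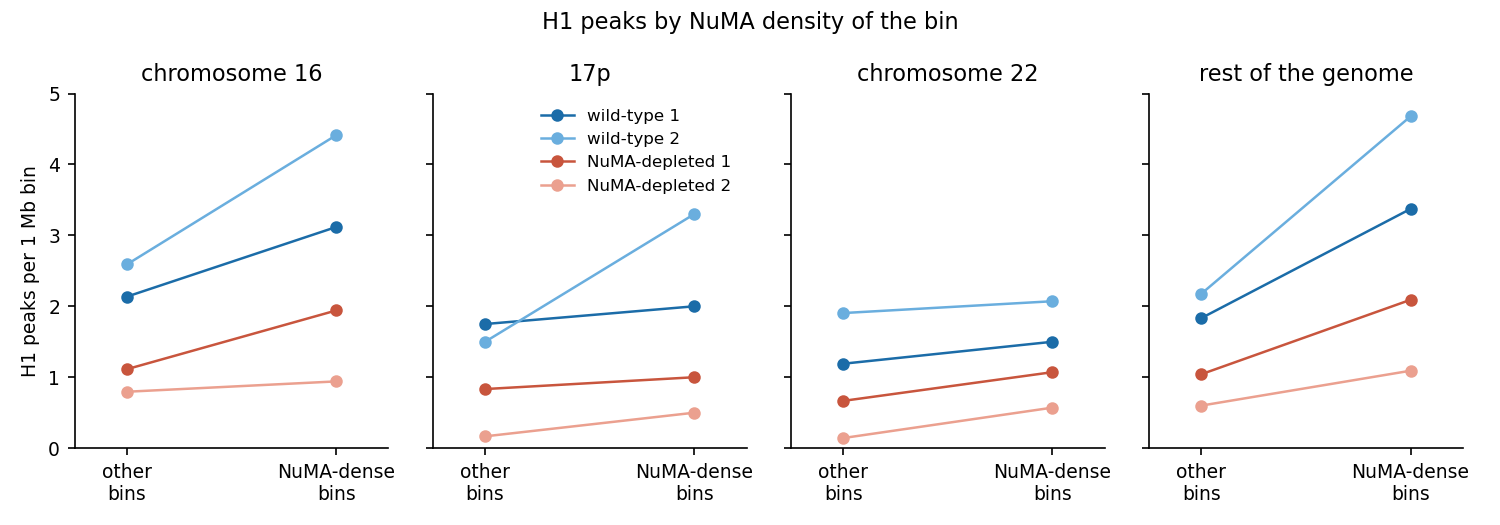
H1 peaks per measured 1 Mb bin in NuMA-dense and other bins of chromosome 16, 17p, chromosome 22 and the rest of the genome. Each library has 1 line (blue wild-type, red NuMA-depleted). Every line is higher in dense bins, and on each segment both depleted libraries lie below both wild-type libraries in either kind of bin.

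No difference between the groups was seen in where H1 peaks lay relative to the dense bins. The log2 ratio of dense over other bins was 0.46 ± 0.17 (SD, n = 2) in wild-type and 0.51 ± 0.09 after depletion, a difference of 0.05 (exact permutation p = 1). The dense bins held 40.2% and 44.3% of the segments' H1 peaks in wild-type, against 44.3% and 42.0% after depletion, a difference of 0.90 percentage points (exact permutation p = 1). Summed over libraries, depleted lists held 0.38 times as many H1 peaks as wild-type lists in dense bins and 0.36 times in other bins. With 2 libraries per group such values cannot show that the groups are alike. The result also depended on list length. Among the 1480 peaks of highest fold in each list, the dense bins held 22.4% and 32.8% in wild-type, against 46.03% and 42.0% after depletion (difference 16.4 percentage points, exact permutation p = 0.333). The lowest fold kept was then 7.08 and 7.17 in wild-type, 6.36 in depleted replicate 1 and 1.94 in depleted replicate 2, so the lists were cut at different strengths.

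By segment, chromosome 22 was where the groups separated. There the dense bins held 45.7% and 42.0% of H1 peaks in wild-type, against 51.7% and 72.7% after depletion (exact permutation p = 0.333), but the depleted lists had only 29 and 11 peaks. On chromosome 16 they held 36.1% and 39.7% in wild-type, against 40.2% and 31.4% after depletion. On 17p they held 20 of 41 and 33 of 51 peaks in wild-type and 10 of 20 and 5 of 7 in depleted libraries. The groups overlapped on both.

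Counted over quartiles of the measured bins by NuMA, H1 followed NuMA weakly. Bins without a NuMA peak were counted only if they held an H1 peak. This raises H1 in the lowest quartile and narrows its distance from the highest. In the lowest quartile, 29 bins without any region of both antibodies, the lists had 1.28, 1.83, 0.90 and 0.62 H1 peaks per bin in wild-type replicates 1 and 2 and depleted replicates 1 and 2. In the highest quartile, 30 bins with 21 to 117 such regions, they had 2.43, 3.70, 1.50 and 0.80. The middle quartiles lay between these in wild-type replicates 1 and 2 and depleted replicate 1, whereas depleted replicate 2 had 0.57 and 0.34 there, below its lowest quartile. Over all 118 bins the Spearman correlation of H1 peaks with regions of both antibodies was 0.27 and 0.33 in wild-type, against 0.17 and 0.11 after depletion, as a description of sparse counts.

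The bins richest in H1 were of different kinds. Chromosome 16 at 33 to 34 Mb, next to the centromere, had 8 and 11 H1 peaks in wild-type, against 5 and 4 after depletion and no NuMA peak. Chromosome 16 at 85 to 86 Mb, a NuMA-dense bin, had 8 and 9 in wild-type, against 2 and 1 after depletion. The bin at 81 to 82 Mb had 6 and 9 against 4 and 4, and that at 88 to 89 Mb, also dense, had 3 and 13 against 3 and 1. The fullest NuMA bin, 2 to 3 Mb, had only 3 and 5 against 1 and 0. On 17p the bin with the most H1 peaks summed over both wild-type lists lay at 21 to 22 Mb, next to the centromere, with 7 and 5 against 3 and 1.

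A minority of the segments' H1 peaks lay directly on a NuMA region. In the whole lists 14.9% and 11.9% of wild-type and 18.2% and 13.4% of depleted H1 peaks overlapped a region called with both antibodies. On the segments 45 of 234 (19.2%, 95% Wilson interval 14.7% to 24.8%) and 65 of 309 (21.04%, 16.9% to 25.9%) did in wild-type. In depleted libraries 36 of 131 (27.5%, 20.6% to 35.7%) and 18 of 69 (26.1%, 17.2% to 37.5%) did. Both depleted libraries were above both wild-type libraries. The means were 20.1% ± 1.3 and 26.8% ± 0.99 (SD, n = 2 each), and the exact permutation test gave its smallest possible value, p = 0.333. The difference of 6.65 percentage points became −2.16 when a reciprocal overlap of 50% was asked for. In dense bins the share was 32.98% and 35.8% in wild-type, against 46.6% and 48.3% after depletion, and in other bins it was between 9.30% and 12.3% in all 4.

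H1 peaks away from NuMA regions could be far from them. The median distance from an H1 summit to the nearest summit of a region called with both antibodies was 51.1 and 46.3 kb in wild-type, against 50.5 and 60.8 kb after depletion. In dense bins the medians were 5.60 and 9.13 kb in wild-type, against 1.38 and 0.88 kb after depletion. These depleted medians rest on 58 and 29 peaks. On each segment alone the groups overlapped, for example with 11.3 and 3.46 against 3.72 and 0.70 kb on chromosome 16. They also overlapped in dense bins of the rest of the genome (6.28 and 9.90 against 2.05 and 6.43 kb). In other bins of the segments the medians were 195.6 and 195.4 against 266 and 306 kb. Within 10 kb lay 30.3% and 31.1% of the segments' H1 peaks in wild-type, against 37.4% and 31.9% after depletion (exact permutation p = 0.333 for the means).

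**Figure D5:**
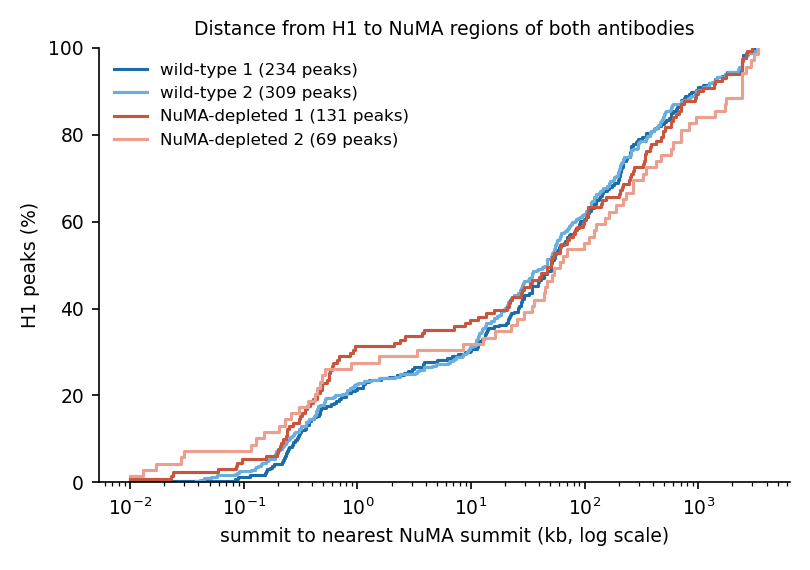
Cumulative percent of the segments' H1 peaks by distance from their summit to the nearest summit of a NuMA region called with both antibodies (kb, log scale, distances under 0.01 kb drawn there), 1 line per library. The lines of the 4 libraries run close together, with medians of 46.3 to 60.8 kb, and at 1 kb both depleted lines lie above the wild-type lines.

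The strongest H1 region called in all 4 lists lay on chromosome 16 at 1075259 to 1075661, inside the dense tip of the short arm, where the folds were 16.9 and 15.7 in wild-type, and 13.8 and 14.8 after depletion. It was followed by chromosome 22 at 51082090 to 51082689, with 13.2 and 15.0 against 8.24 and 11.0. Chromosome 16 at 84047573 to 84048211 had 8.34 and 9.11 against 8.20 and 8.63. On 17p the region at 14204099 to 14204502 had 8.10 and 8.54 against 9.02 and 10.7. Chromosome 16 at 78133288 to 78134029 and at 72127393 to 72127987 completed the 6 strongest, with all folds between 7.40 and 8.72. None of these 6 overlapped a NuMA peak of either antibody. Of all wild-type replicate 1 H1 peaks on the segments, 21.8% overlapped a C-terminal and 35.5% an N-terminal peak, so a count over 6 picked regions says little.

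Of the 24 H1 regions called in all 4 lists, 5 lay on a region called with both NuMA antibodies, a share of 20.8%, near that of all H1 regions shared by the wild-type lists (24 of 117, 20.5%). They were chromosome 22 at 41252421 to 41253127 (folds 7.85 and 8.07 in wild-type, 8.08 and 6.91 in depleted), chromosome 16 at 46722696 to 46723504 (8.55 and 7.99, 8.92 and 6.85), and chromosome 16 at 15068589 to 15068964, 81040443 to 81041148 and 29465615 to 29466322, with folds between 4.89 and 8.41. Only the first and the last of these 5 lay in dense bins.

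Part of the wild-type H1 regions was called again after depletion. In the whole genome 59.8% of the regions shared by both wild-type H1 lists were found in at least 1 depleted list. On the segments 63 of 117 were, or 53.8% (44.8% to 62.6%): 24 in both depleted lists and 39 in 1 of them, with 54 in neither. By segment the counts were 48 of 83 on chromosome 16, 5 of 14 on 17p and 10 of 20 on chromosome 22. Dense bins kept 25 of 47 (53.2%, 39.2% to 66.7%) and other bins 38 of 70 (54.3%, 42.7% to 65.4%). The depleted libraries differed in this. Replicate 1 held 48.9% of the regions in dense bins and 48.6% of those in other bins, whereas replicate 2 held 17.02% and 31.4%. Regions on a NuMA region of both antibodies were kept in 14 of 24 cases and the others in 49 of 93. Replicate 1 alone held 48.7% of all 117 regions and replicate 2 alone 25.6%.

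The strongest H1 regions that both wild-type lists and no depleted list held had folds between 7.24 and 9.01. They lay on chromosome 22 at 30987840 to 30988330 (9.01 and 8.65), on chromosome 16 at 53737782 to 53738081 (7.98 and 8.31), on 17p at 16556897 to 16557239 (7.93 and 7.60), and on chromosome 16 at 75467110 to 75467509 (7.53 and 7.61), 8891519 to 8891890 (7.67 and 7.41) and 29955431 to 29955818 (7.50 and 7.24). Of these 6, 3 lay on a region called with both NuMA antibodies, all on chromosome 16 outside the dense bins. Over all 54 regions of this kind 10 did, or 18.5%. In the whole genome 42 of the 745 regions shared by both depleted lists were in no wild-type list. On the segments 4 of 33 were. They lay on chromosome 22 at 41864767 to 41865343 (9.52 and 7.28), on 17p at 8818935 to 8819513 (7.58 and 5.90), and on chromosome 16 at 745431 to 745929 (6.70 and 5.67) and 77247513 to 77247854 (5.58 and 5.93). The first 3 lay in dense bins, and those at 41864767 and 745431 lay on regions of both NuMA antibodies. Of all H1 peaks of depleted replicate 1 on the segments, 44.3% lay in dense bins and 27.5% on such regions.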

How the data were processed

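The submitters' processing notes named MACS2, Bowtie2, Trim Galore and Picard, with the build hg19, without versions or roles. Deposited was 1 peak list per library. Peak names carried a q limit of 0.001 and, for NuMA, a folder called ChIP-seq, where the labels say CUT&Tag. Each peak had the authors' fold, −log10 p, −log10 q and a whole-number score. The fold was read as the ratio of summit fragments to local background with 1 added to each, which lowers folds where counts are small. The score, deposited as 10 times the −log10 q, was not used. Scripts ran in Python 3.11.15 (pandas 2.3.3, scipy 1.17.1, numpy 2.4.6, matplotlib 3.10.9). Peaks were placed in 1 Mb bins by their start, and overlap meant 1 bp. H1 groups were compared with an exact two-sided permutation test over libraries. Depth was recovered from fold and −log10 p, as whole fragments within 0.01 for 99.5% to 100.0% of peaks in a list, with an assumed genome size of 2.7 Gb. Per peak, the recovered median was 13 to 20 summit fragments in H1 lists, 27 and 54 in NuMA lists, on the segments. The overlap, bin, depth and permutation code was tested on simulated data. Named bins, regions and runs followed fixed rules (the 5 fullest bins per segment, all dense runs, the 5 strongest regions of both antibodies and 3 of a single antibody per segment, and 6 H1 regions per class). Segments and lists were chosen with earlier results of these data known. No hg19 sequence or annotation was used here, so peaks carry no gene or sequence.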

Additional observations from a re-analysis of the deposited data

How the results depend on the processing

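Of 78 cases, 15 changed the sign of a result and 18 moved a value or count with no test beyond its limits. The limits were the 95% interval for values and a fixed fold range for the count of dense bins. The other 45 kept the sign of a difference or, for values and counts with no test, stayed within those limits, but some moved far in size. The H1 tests could not pass a threshold with 2 against 2 libraries, and the cause of these moves was not tested. The C-terminal density excess of 3.51 became 3.28 with 500 kb bins and 3.34 with all bins counted. The N-terminal excess of 3.24 became 3.03, 3.09 and, with NuMA lists of equal length, 3.40. The 41 dense bins became 66 with 500 kb and 24 with 2 Mb bins, and 63 and 22 at the 80th and 95th percentile. The overlapping share of C-terminal peaks became 52.6% for a reciprocal overlap of 50%, 50.7% for summits within 200 bp and 67.1% with lists of equal length. For N-terminal peaks it became 41.1%, 39.6% and 64.9%, and 51.9% at a −log10 q of at least 5.

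For H1, the depleted minus wild-type log2 ratio of dense over other bins went from 0.05 to −0.10 with 500 kb bins, −0.31 with 2 Mb bins, −0.067 with all bins, −0.29 at the 80th and −0.11 at the 95th percentile. It became 1.07 with H1 lists of equal length, and the difference in the share in dense bins became 16.4 percentage points. The log2 difference ranged from −0.070 to 0.18 with 1 library left out, below 0 without wild-type replicate 1 or depleted replicate 1, and was 0.13 without the bins next to the centromere, an alternative added after seeing the data. The share in dense bins went from 0.90 to −1.57 with 500 kb bins, −5.21 with 2 Mb bins, −4.67 and −1.46 at those percentiles, and ranged from −1.18 to 2.98 percentage points with 1 library left out. It was 2.26 without the bins next to the centromere. The share of H1 peaks on the segments turned to 0.74 with H1 lists of equal length, and that on NuMA regions to −2.16 for a reciprocal overlap of 50% (2.05 for summits within 200 bp), and these ranged from −0.73 to −0.31 and from 5.75 to 7.55 with 1 library left out. Kept H1 regions went from 53.8% to 20.5% when both depleted lists had to hold them, and to 25.6% and 48.7% without depleted replicate 1 or 2.

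Pairing the libraries by replicate number, as a replicate block with an exact sign-flip test, left the differences at 0.05, −0.52, 0.90 and 6.65 (p of 0.5 or more, the smallest possible for 2 pairs). The same numbers did not deviate together (correlation of −0.01 over 2326 bins and 0.10 over the 118 of the segments). Low summit counts limit the H1 calls, so a bin or region without a peak does not show that H1 was absent.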
